A study of Homo sapiens with 9 samples.

Results

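H/ACA box small nucleolar RNAs (snoRNAs) were followed in OCI-Ly1 cells exposed to JIB-04. They were taken as all gene symbols that begin with SNORA and a digit and that had at least 10 counts in at least 3 of the 9 libraries. This rule kept 86 of the 106 such symbols among the 25370 symbols of the count table. OCI-Ly1 is an established human cell line of diffuse large B-cell lymphoma, and JIB-04 is a small molecule that blocks Jumonji-type histone demethylases. Cells received 500 nM JIB-04, 150 nM JIB-04 or the vehicle DMSO for 48 h, and RNA depleted of ribosomal RNA was sequenced from 3 libraries per group. All libraries come from 1 cell line, and no label states that replicates were grown as independent cultures, so p-values reflect only how these libraries vary, which may be technical variation. The B-cell markers in the table lay between 59.0 and 608 CPM (counts relative to the TMM-scaled library size) for all 7 genes checked, while none of 8 markers of other cell types reached 10 CPM.

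An H/ACA snoRNA folds into a pair of hairpins, followed by the short H box at the hinge and by the ACA box near the tail. It guides the enzyme dyskerin (DKC1), which works together with NOP10, NHP2 and GAR1, to a uridine of ribosomal RNA that is turned into pseudouridine. Most human H/ACA snoRNAs are cut out of introns of host genes, many of which code for ribosomal proteins and other parts of the translation machinery, or are non-coding small nucleolar RNA host genes (SNHG). The level of an intronic snoRNA therefore has its starting point in the transcription and splicing of its host. Related guides that collect in Cajal bodies carry SCARNA symbols, and box C/D snoRNAs, which guide ribose methylation with other proteins, carry SNORD symbols.

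The following transcripts are those on which the results turn, with the letters from GENCODE 29 (human build GRCh38), written 5′ to 3′. Capitals mark a match to the H box letters ANANNA between 40 and 65% of the length and to ACA within the last 8 bases. SNORA63 is shown as the most abundant member, SNORA62 and SNORA6 as a pair in the same ribosomal protein gene, SNORA38, SNORA15 and SNORA29 as members with large decreases, and SNORA47, SNORA78 and SNORA5C as the members that rose. SNORA25 is shown as 1 of the 6 members in the host TAF1D, not called where others of that host fell.
SNORA63: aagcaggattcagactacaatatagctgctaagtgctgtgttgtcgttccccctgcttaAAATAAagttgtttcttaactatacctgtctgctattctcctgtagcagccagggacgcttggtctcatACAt
SNORA62: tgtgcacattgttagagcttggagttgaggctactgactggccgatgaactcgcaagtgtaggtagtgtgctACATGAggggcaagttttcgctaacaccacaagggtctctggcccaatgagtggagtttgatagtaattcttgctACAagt
SNORA6: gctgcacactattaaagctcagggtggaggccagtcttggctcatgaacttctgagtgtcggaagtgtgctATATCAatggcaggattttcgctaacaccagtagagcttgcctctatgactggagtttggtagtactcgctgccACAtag
SNORA38: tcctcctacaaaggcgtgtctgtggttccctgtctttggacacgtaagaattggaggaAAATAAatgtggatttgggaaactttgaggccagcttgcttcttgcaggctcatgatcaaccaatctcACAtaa
SNORA15: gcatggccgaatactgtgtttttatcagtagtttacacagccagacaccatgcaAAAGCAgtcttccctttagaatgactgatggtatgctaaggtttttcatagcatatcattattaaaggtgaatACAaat
SNORA29: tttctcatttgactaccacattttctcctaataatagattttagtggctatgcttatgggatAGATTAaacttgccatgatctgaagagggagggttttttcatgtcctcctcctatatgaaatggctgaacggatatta
SNORA47: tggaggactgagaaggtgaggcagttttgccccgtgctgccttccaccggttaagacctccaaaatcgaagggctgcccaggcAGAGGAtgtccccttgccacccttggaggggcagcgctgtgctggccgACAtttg
SNORA78: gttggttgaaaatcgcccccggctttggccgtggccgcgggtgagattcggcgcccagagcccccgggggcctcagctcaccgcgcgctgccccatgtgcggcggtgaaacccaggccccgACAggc
SNORA5C: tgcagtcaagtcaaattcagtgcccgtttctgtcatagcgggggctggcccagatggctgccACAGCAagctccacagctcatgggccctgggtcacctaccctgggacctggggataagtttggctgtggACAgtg
SNORA25: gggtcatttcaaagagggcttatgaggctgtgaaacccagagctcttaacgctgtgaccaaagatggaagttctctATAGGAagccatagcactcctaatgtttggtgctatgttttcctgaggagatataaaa

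The 86 members were 121 to 249 bases long, with a median of 134. On these letters 79 members (91.9%) held ACA in the last 8 bases, 78 (90.7%) held an H box match, and 72 held both. Among 288 SNORD transcripts of the same annotation, ACA was found in 14 (4.9%), the H box letters in 138 (47.9%) and both in 2. SNORA25 and SNORA29 had no ACA in this window, and SNORA78 and SNORA74A had no H box match in theirs. By the annotation, 84 members lay inside a host gene of the table on the same strand and 2, SNORA70G and SNORA76C, did not. The 84 were spread over 61 hosts, and 13 hosts held more than 1 member (36 members together). Ribosomal protein genes held 16 members, SNHG genes 13 and other genes 55. Of the 84, 47 lay in introns of every annotated host transcript and 37 overlapped an exon of at least 1, where reads of the host transcript and of the snoRNA cannot be told apart. RNA depleted of ribosomal RNA can also hold unspliced host transcripts, whose reads may fall on the 47 intronic members. The share of such reads was not measured. Some members are near copies, such as SNORA80A and SNORA80B (91.9% identical), SNORA14A and SNORA14B (91.1%), SNORA71B and SNORA71D (90.3%), and SNORA38 and SNORA38B (85.1%), so their split of reads is uncertain.

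Levels spanned a wide range. Over all 9 libraries the members summed to a mean of 570 CPM after scaling, and the 10 most abundant held 52.2% of it. SNORA63, in the translation helicase gene EIF4A2, alone held 12.2% with a mean level of 69.7 CPM. SNORA48 had a mean of 60.0 CPM, SNORA57 28.4, SNORA68 28.1, SNORA12 26.9, SNORA71A 26.0, SNORA70 21.4, SNORA76C 12.9, SNORA71D 12.4 and SNORA24 11.8 CPM. The median member had 3.21 CPM, 18 members were under 1 CPM and the lowest, SNORA34, had 0.166 CPM. Per length the order at the top was nearly the same, with 52.8 CPM per 100 nt for SNORA63, 44.5 for SNORA48, 21.1 for SNORA68 and 19.4 for SNORA71A. SNORA34, SNORA11, SNORA14A and SNORA31, all under 0.18 CPM on average, stood just inside the count rule, while SNORA79 (10 or more counts in 2 libraries), SNORA70E and SNORA70D (in 1 library each) stood just outside it.

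Library totals ran from 28476845 to 57198613 counts, of which the members took 0.0458 to 0.0691%. The third 150 nM library stood lower than the other two of its group for 48 of the 68 members with a mean of at least 1 CPM, with a median log2 difference of -0.21. The largest such gap was -1.45 for SNORA80B. The second 150 nM library stood higher (median 0.27), as did the first 500 nM library (0.17), whereas the third DMSO library stood lower (-0.13). Over all genes these medians were between -0.01 and 0.01.

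At 500 nM JIB-04 most of the H/ACA snoRNAs that changed fell. Of 85 members tested, 34 were lower and 3 were higher in 500 nM cells than in DMSO cells, and 48 did not pass the test (edgeR quasi-likelihood test over 15089 genes, Benjamini-Hochberg adjusted p under 0.05). Over all genes tested 52% were called, 25.6% lower and 26.3% higher, so the members' share of decreases (40%) lay above and their share of increases (3.53%) below the background. Of 37 members that overlap a host exon, where host reads may be counted, 20 were lower (54.1%) and 1 higher. Of 46 tested members that are intronic in every host transcript, 13 were lower (28.3%), near the share of all genes, and 2 higher (4.35%), below it. Reads of unspliced host RNA may be counted in these too. Of the 46 estimates 34 were below 0, against 33 of 37 for members that overlap an exon and 7387 of 15089 over all genes. The intronic members had a median log2 fold change of -0.38, against -0.51 for those that overlap an exon. The difference between these 2 sets was not tested. The median log2 fold change of the members was -0.48, against 0.01 for all genes. In 37 members every 500 nM library lay below every DMSO library, and in 4 every one lay above (29% and 30.2% of all genes). SNORA34 did not pass the filter on low counts and was not tested. Scaling by total counts moved the median of all genes to 0.15 and that of the members to -0.35, and 22 members were then called lower and 3 higher. With that scaling 16.7% of all genes were lower and 37.9% higher. In these bulk samples a change in RNA per cell and a change in which cells were left cannot be told apart.

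**Figure D1:**
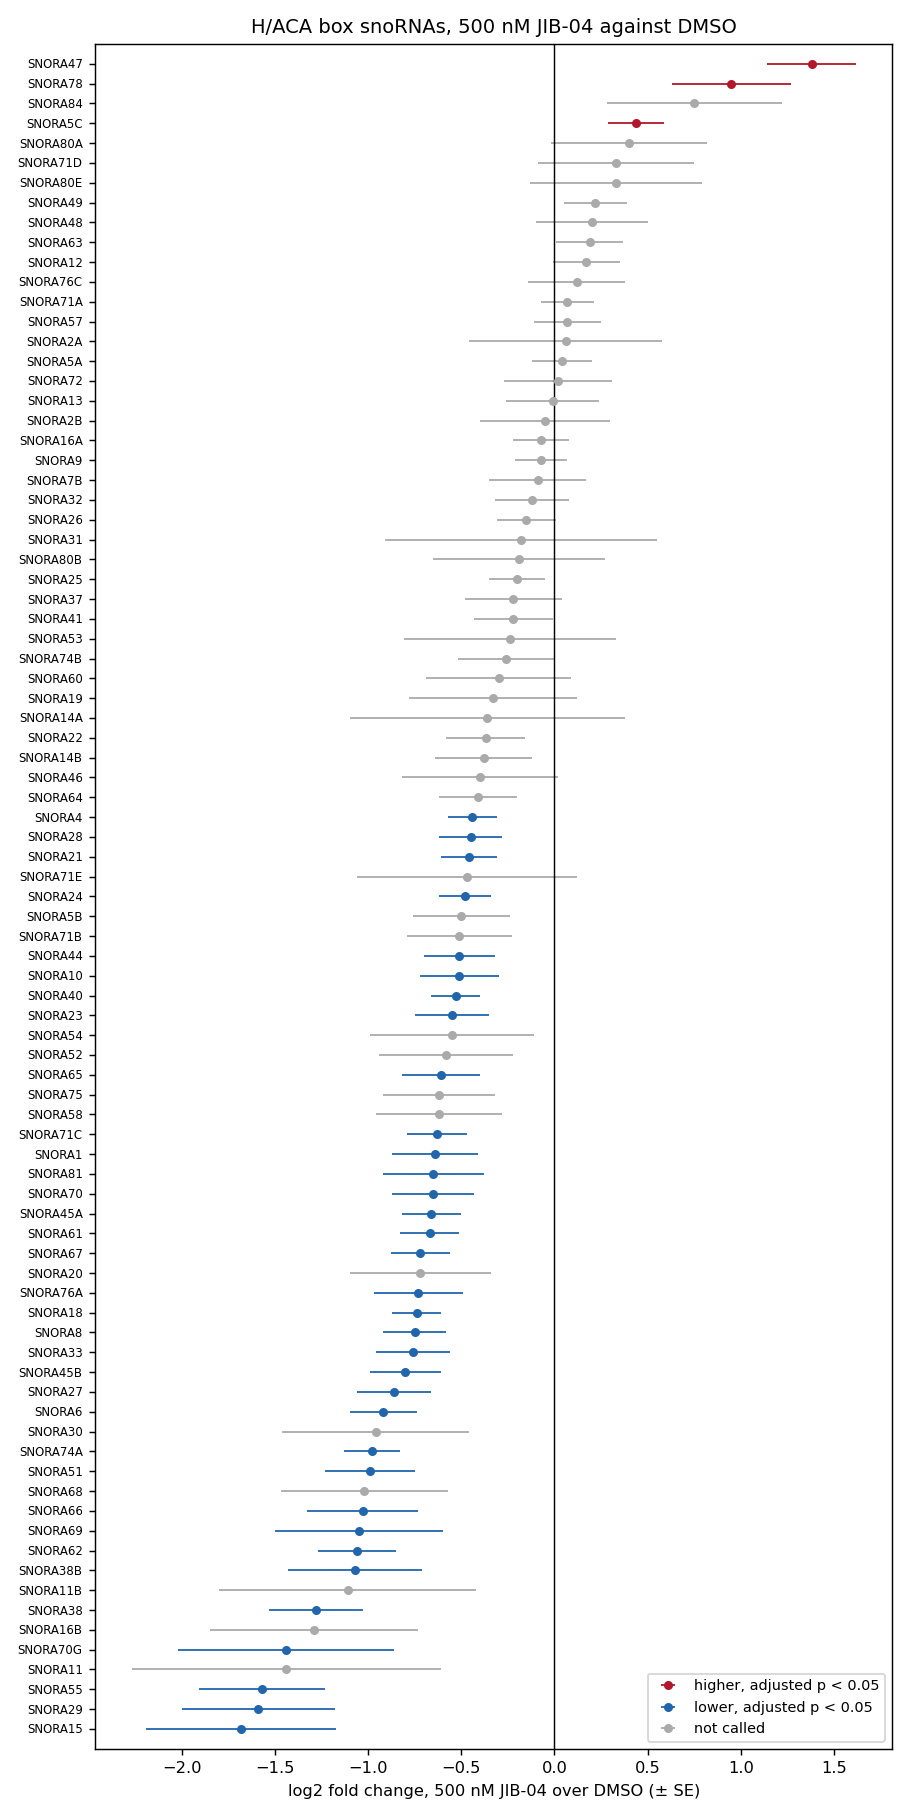
Log2 fold change of 85 H/ACA box snoRNAs in 500 nM JIB-04 against DMSO cells (x axis, points with standard error, edgeR), sorted from the highest at the top to the lowest. The 34 members called lower reach down to -1.68 for SNORA15, and 3 members, SNORA47, SNORA78 and SNORA5C, were called higher.

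The decrease was described by abundance. Among the 10 most abundant members 2 were lower (20%) and none was higher, with a median log2 fold change of 0.09. Among the other 75 tested, 32 were lower (42.7%) and 3 higher (4%), with a median of -0.51. Over all genes 25.6% were lower and 26.3% higher. The difference by abundance was not tested. The 10 most abundant members summed to 335.0, 267.8 and 255.5 CPM in the 500 nM libraries, against 328.6, 291.9 and 253.6 CPM in the DMSO libraries, and these ranges overlap. The remaining 76 summed to 249.0, 213.8 and 217.6 CPM in 500 nM cells, against 314.3, 314.4 and 274.5 CPM in DMSO cells, without overlap. The sum of all members averaged 512.9 ± 61.8 CPM at 500 nM and 592.4 ± 58.6 CPM with DMSO (SD, n = 3 each), a difference close to the spread within a group.

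**Figure D2:**
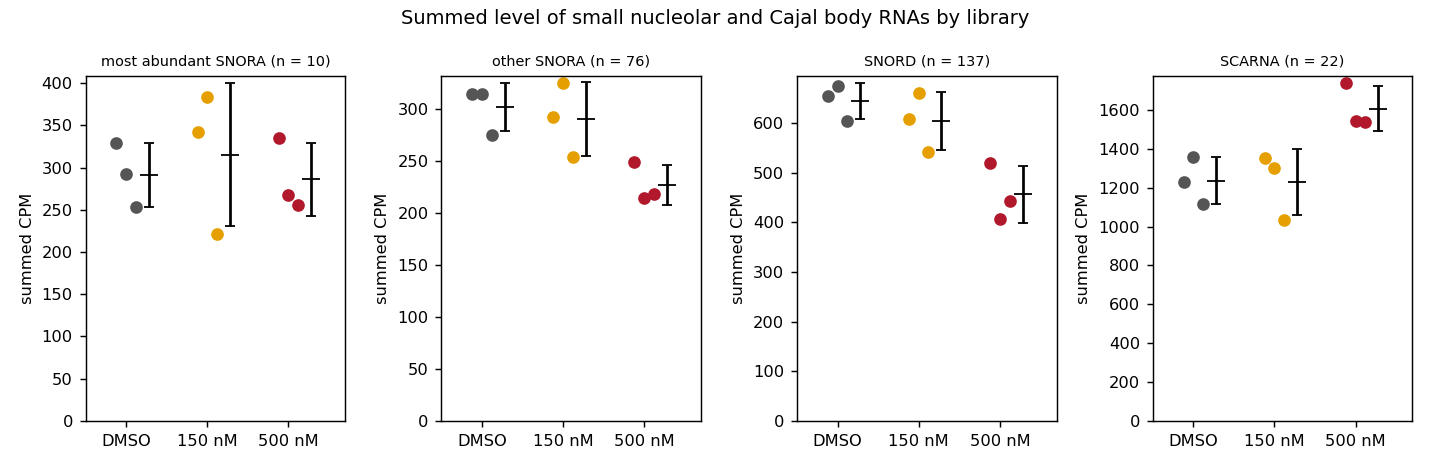
Summed CPM by library (y axis) for the 10 most abundant H/ACA snoRNAs, the other 76, 137 box C/D snoRNAs and 22 Cajal body RNAs in DMSO, 150 nM and 500 nM JIB-04 cells. Points are libraries and bars are the mean ± SD of 3, and the 500 nM libraries lie below the others for the 76 less abundant members and for the C/D snoRNAs, and above them for the Cajal body RNAs.

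Among the abundant members, SNORA63 had 73.6, 65.4 and 58.8 CPM in 500 nM cells, against 59.5, 57.8 and 56.0 CPM in DMSO cells. The groups overlapped, and the log2 fold change of 0.19 ± 0.18 (SE) did not pass the test (adjusted p = 0.408, edgeR). An estimate of the same size was called in the fit of only the 6 libraries compared (0.20, adjusted p = 0.0134, edgeR) and without the third 150 nM library (0.19, adjusted p = 0.0448, edgeR). SNORA48 and SNORA57 likewise had small estimates of 0.20 ± 0.30 and 0.07 ± 0.18, with adjusted p = 0.605 and 0.779 (edgeR). SNORA70, in the ribosomal protein gene RPL10, had 17.6, 16.4 and 15.6 CPM in 500 nM cells and 34.3, 23.5 and 20.1 CPM in DMSO cells. These groups did not overlap, and SNORA70 fell by 0.65 on the log2 scale (SE 0.22, adjusted p = 0.0351, edgeR), a call that 5 of 17 other settings ended (adjusted p from 0.0537 to 0.0969). SNORA24, in SNHG8, had 11.4, 7.92 and 8.18 CPM in 500 nM cells and 13.6, 13.6 and 11.4 CPM in DMSO cells. The groups did not overlap, with the first 500 nM library just under the lowest DMSO library, and the log2 fold change was -0.48 ± 0.14 (adjusted p = 0.00589, edgeR). SNORA68 had 25.1, 15.9 and 12.2 CPM in 500 nM cells and 33.0, 48.4 and 27.5 CPM in DMSO cells. Its groups did not overlap, but with this spread the estimate of -1.02 ± 0.45 did not pass (adjusted p = 0.103, edgeR), whereas DESeq2 called it (-1.03, adjusted p = 0.0371).

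Members in ribosomal protein genes had the lowest median of the 3 host classes. Of the 16, 12 (75.0%) were lower at 500 nM and none was higher, with a median log2 fold change of -0.71. SNHG hosts gave 5 lower (38.5%) and 1 higher of 13 (median -0.47). Other hosts gave 16 lower (29.6%) and 2 higher of 54 (median -0.38). Over all genes 25.6% were lower and 26.3% higher. The differences between these classes were not tested. Most of the 16, SNORA62 and SNORA6 among them, overlap an exon of their host, so host reads may be counted. Of 12 ribosomal protein hosts tested, 11 were lower (median -0.33). The 16 summed to 91.8, 73.8 and 70.5 CPM in 500 nM cells, against 143.1, 140.1 and 111.9 CPM in DMSO cells. RPSA, which codes for a small-subunit ribosomal protein, holds SNORA62 and SNORA6. SNORA62 had 2.24, 1.42 and 2.78 CPM in 500 nM cells, against 5.38, 3.56 and 4.47 CPM in DMSO cells, and fell by 1.06 on the log2 scale (SE 0.21, adjusted p = 0.00012, edgeR). SNORA6 had 3.50, 2.35 and 3.61 CPM in 500 nM cells, against 6.10, 6.56 and 5.38 CPM in DMSO cells, and fell by 0.92 (SE 0.18, adjusted p = 7.44e-05, edgeR). In both, every 500 nM library lay below every DMSO library. RPSA itself fell by 0.65 on the log2 scale (SE 0.05), with 702.4, 695.4 and 716.3 CPM at 500 nM and 1164.3, 1146.3 and 1003.6 CPM with DMSO. Further decreases in this class were SNORA66 in RPL5 (log2 fold change -1.03 ± 0.30, lost without the first DMSO library at adjusted p = 0.0687, edgeR), SNORA27 in RPL21 (-0.86 ± 0.20), SNORA45B and SNORA45A in RPL27A (-0.80 ± 0.19 and -0.66 ± 0.16) and SNORA33 in RPS12 (-0.76 ± 0.20). SNORA69 in RPL39 was called at -1.05 ± 0.45 (adjusted p = 0.048, edgeR), but 9 of 16 other settings ended that call (adjusted p from 0.0514 to 0.156). The calls of SNORA10 in RPS2, SNORA65 in RPL12 and SNORA21 in RPL23 were ended by 7, 4 and 2 of 17 other settings. Total-count scaling ended each of these calls and those of SNORA69 and SNORA70, so the share of 75.0% depends on the scaling.

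The largest decreases were in genes of other kinds. SNORA15, in CCT6A, which codes for a subunit of the chaperonin that folds actin and tubulin, had 0.348, 0.178 and 0.168 CPM in 500 nM cells and 0.858, 1.03 and 0.421 CPM in DMSO cells (log2 fold change -1.68 ± 0.51, adjusted p = 0.00651, edgeR). SNORA29, in the chaperonin subunit gene TCP1, had 0.282, 0.355 and 0.542 CPM in 500 nM cells and 0.904, 0.880 and 1.73 CPM in DMSO cells (-1.59 ± 0.41, adjusted p = 0.00181, edgeR). SNORA55, in the poly(A)-binding protein gene PABPC4, had 0.365, 0.599 and 0.822 CPM in 500 nM cells and 1.60, 1.58 and 2.11 CPM in DMSO cells (-1.57 ± 0.34, adjusted p = 0.000287, edgeR). In all 3 the groups were apart, at low levels. The hosts TCP1 and PABPC4 also had negative log2 fold changes, of -0.7 and -0.69. SNORA29 overlaps an exon of TCP1, so host reads may be counted there. SNORA38, in PRRC2A, which codes for an RNA-binding protein, was more abundant, with 1.81, 1.04 and 1.85 CPM in 500 nM cells and 4.94, 2.68 and 3.77 CPM in DMSO cells. It fell by 1.28 on the log2 scale (SE 0.25, adjusted p = 8.82e-05, edgeR), while PRRC2A itself fell by 0.26 (SE 0.06). Its relative SNORA38B, in the nucleolar protein gene NOL11, fell by 1.07 (SE 0.36, adjusted p = 0.0136, edgeR), and the call was lost without the first DMSO library (adjusted p = 0.119) or without the second 500 nM library (adjusted p = 0.073). SNORA70G, with no host in the table, had an estimate of -1.44 ± 0.58 (adjusted p = 0.0371, edgeR), and 6 of 16 other settings ended the call (adjusted p from 0.0508 to 0.164). A gene of the table lies on the strand opposite to 4 members, SNORA66, SNORA70G, SNORA13 and SNORA74A, and whether counting used strand is not given in the labels.

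The 3 members that rose lie in different kinds of host. SNORA47, in an intron of ZBED3, a zinc finger gene, had 3.75, 2.6 and 3.01 CPM in 500 nM cells, against 1.11, 0.880 and 1.55 CPM in DMSO cells. Every 500 nM library was above every DMSO library, the log2 fold change was 1.38 ± 0.24 (adjusted p = 2.56e-05, edgeR), and the call held under every setting tried. ZBED3 had 7.17, 6.08 and 6.22 CPM in 500 nM cells and 1.65, 1.54 and 0.960 CPM in DMSO cells, a log2 fold change of 2.24 ± 0.20. SNORA78, which overlaps an exon of the non-coding SNHG9, had 3.07, 2.82 and 3.06 CPM in 500 nM cells and 2.13, 1.94 and 0.609 CPM in DMSO cells (0.95 ± 0.32, adjusted p = 0.0171, edgeR). Every 500 nM library was above every DMSO library, the third DMSO library was the lowest, and without it the call was lost (adjusted p = 0.107). SNHG9 fell by 0.46 on the log2 scale (SE 0.13), a call lost without the second DMSO library (adjusted p = 0.0586, edgeR). SNORA5C, in an intron of TBRG4, which codes for a mitochondrial RNA-binding protein, had 13.1, 12.4 and 12.9 CPM in 500 nM cells and 11.6, 9.71 and 7.02 CPM in DMSO cells (0.44 ± 0.15, adjusted p = 0.0179, edgeR). That call was lost without the third DMSO library or without the first 500 nM library (adjusted p between 0.0544 and 0.142). TBRG4 fell by 0.23 on the log2 scale (SE 0.07, adjusted p = 0.00604, edgeR), which did not hold under total-count scaling (-0.09, adjusted p = 0.305) or without the first 500 nM library (adjusted p = 0.0505).

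**Figure D3:**
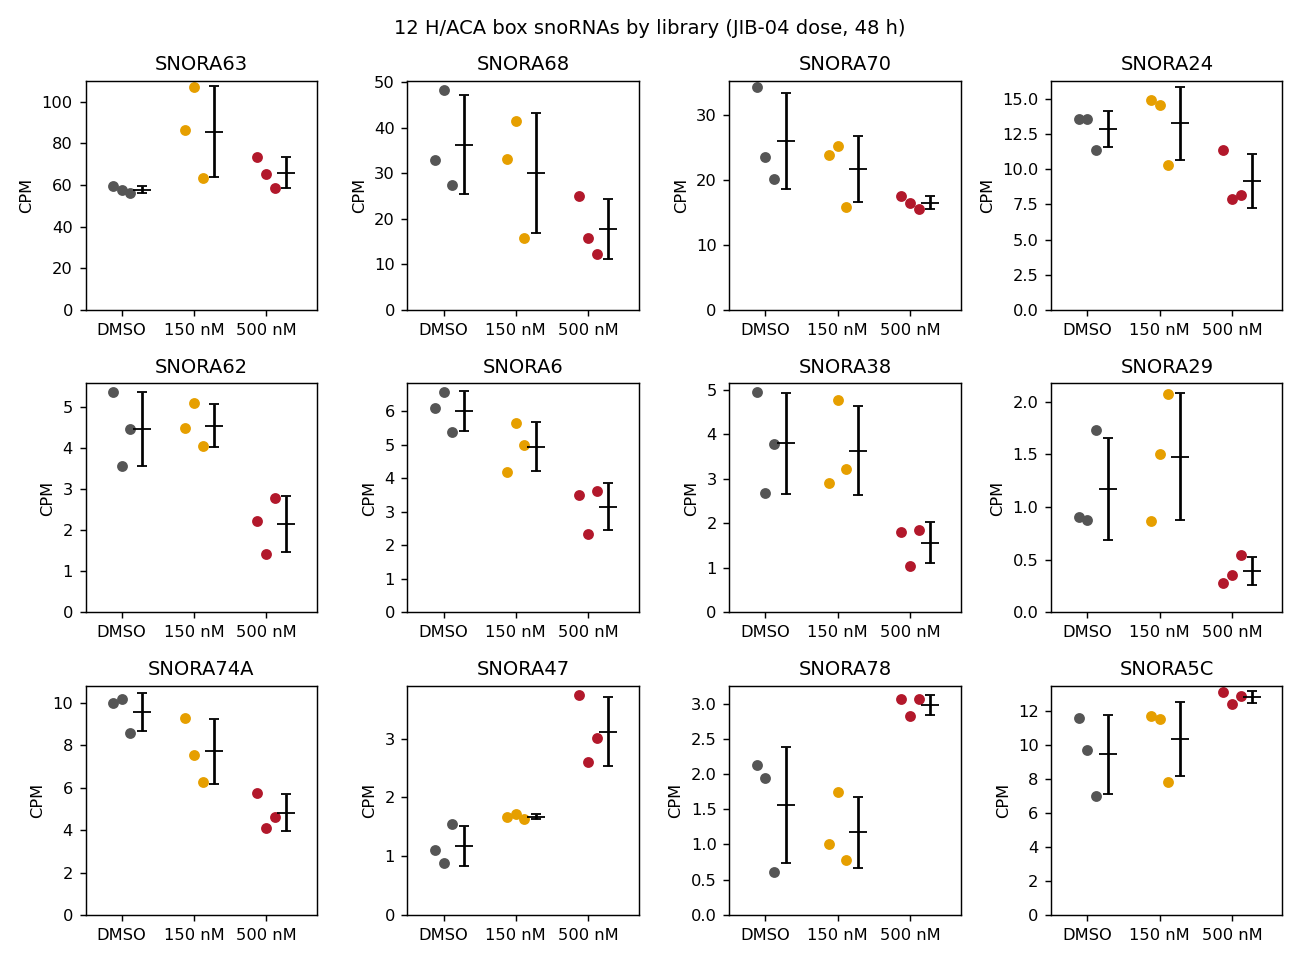
CPM by library (y axis, from 0) of 12 H/ACA box snoRNAs in DMSO, 150 nM and 500 nM JIB-04 cells, with each point 1 library and bars the mean ± SD of 3. SNORA62, SNORA6, SNORA38, SNORA29 and SNORA74A are lowest at 500 nM, SNORA47, SNORA78 and SNORA5C are highest there, and SNORA63 overlaps between DMSO and 500 nM.

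Members of the same host did not all pass the test together. TAF1D, which codes for a subunit of the RNA polymerase I selectivity factor, holds 6 members, and TAF1D itself fell by 0.60 on the log2 scale at 500 nM (SE 0.08). SNORA8 fell by 0.75 (SE 0.17), SNORA18 by 0.74 (SE 0.13), SNORA1 by 0.64 (SE 0.23) and SNORA40 by 0.53 (SE 0.13). The call of SNORA1 was ended by 4 of 17 other settings (adjusted p from 0.0568 to 0.0861, edgeR). SNORA18 had 6.29, 7.17 and 5.70 CPM in 500 nM cells, against 9.97, 10.3 and 11.6 CPM in DMSO cells. SNORA25 had 4.38, 5.08 and 4.93 CPM in 500 nM cells, against 5.68, 6.12 and 4.78 CPM in DMSO cells, and its estimate of -0.20 ± 0.15 did not pass (adjusted p = 0.281, edgeR), nor did that of SNORA32 (-0.12 ± 0.20, adjusted p = 0.632, edgeR). In EIF4A2, whose own change was -0.11 ± 0.06, SNORA4 fell by 0.44 (SE 0.13), which total-count scaling moved to -0.30, no longer called (adjusted p = 0.0501, edgeR). SNORA81 fell by 0.65 (SE 0.27), a call that 11 of 17 other settings ended (adjusted p from 0.0522 to 0.212), while SNORA63 was not called. In the non-coding SNHG12 (0.05 ± 0.08), SNORA61 fell by 0.67 (SE 0.16) and SNORA44 by 0.51 (SE 0.19), and SNORA16A was at -0.07 ± 0.15. The call of SNORA44 was ended by 5 of 17 other settings (adjusted p from 0.0569 to 0.104, edgeR). In SNHG17 (-0.11 ± 0.11), SNORA71C fell by 0.63 (SE 0.16), and SNORA71A (0.07 ± 0.14), SNORA71B (-0.51 ± 0.28) and SNORA71D (0.33 ± 0.42) did not pass. Without the third DMSO library SNORA71B was at -0.82 and called lower (adjusted p = 0.00948, edgeR). Differences between members of a host were not tested.

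The decreases were set beside the changes of the hosts. Of 59 hosts tested, 34 were lower (57.6%) and 7 higher (11.9%) at 500 nM, with a median log2 fold change of -0.20. Over all genes 25.6% were lower and 26.3% higher. Over the 80 pairs in which both were tested, 31 members were lower, and their host was lower in 23, not called in 8 and higher in none. Of 46 members in these pairs that were not called, 27 had a called host, lower in 21 and higher in 6. Of the 3 members that rose, SNORA47 had a host that rose as well, while SNORA78 and SNORA5C lie in hosts that were lower, SNHG9 and TBRG4. SNORA74A and its non-coding host SNHG4 were the pair with the largest fall of a host. SNORA74A had 5.77, 4.08 and 4.63 CPM in 500 nM cells and 10.0, 10.2 and 8.57 CPM in DMSO cells (log2 fold change -0.98 ± 0.15, adjusted p = 4.4e-06, edgeR), and SNHG4 had 9.75, 10.2 and 8.50 CPM in 500 nM cells and 28.8, 31.1 and 27.0 CPM in DMSO cells (-1.61 ± 0.10).

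**Figure D4:**
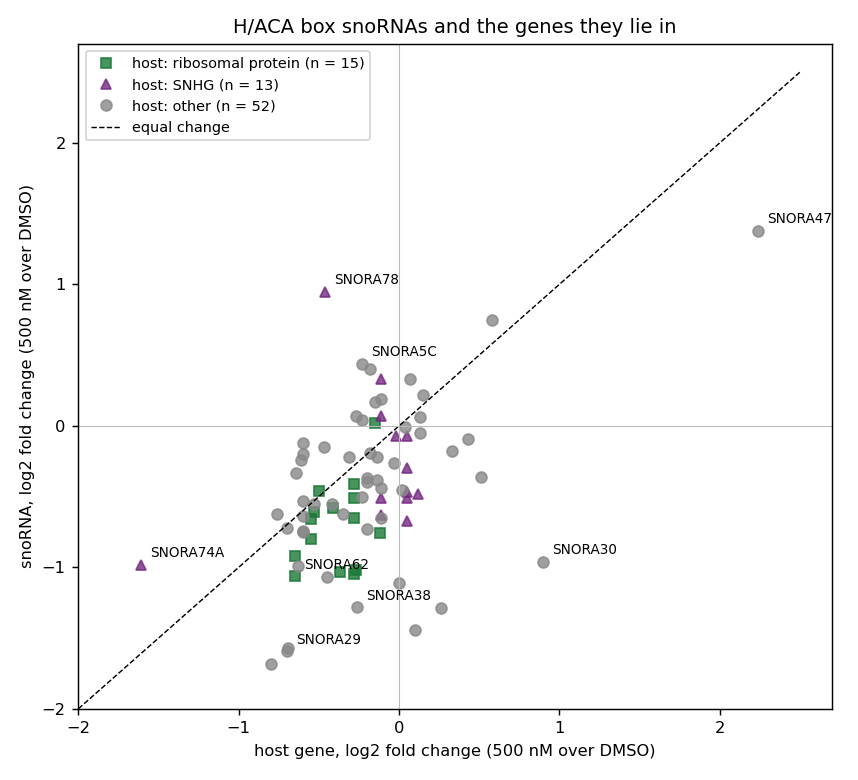
Log2 fold change in 500 nM JIB-04 against DMSO cells of each H/ACA snoRNA (y axis) and of its host gene (x axis) for 80 pairs, by host class, with the dashed line at equal change. Most pairs lie in the lower left, SNORA47 and ZBED3 are both higher, and SNORA78, SNORA5C and SNORA30 are among those on the opposite side of 0 from their hosts.

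The snoRNA-to-host ratio was compared within libraries, which takes library scaling out. Over 309 nested small RNA and host pairs, limma called 21 (6.8%) at 500 nM against DMSO, 18 lower (5.83%) and 3 higher (0.971%). Among the 84 H/ACA pairs 1 was lower and none was higher, and 8 lower and 3 higher had an unadjusted p under 0.05. The median difference was -0.19 for the H/ACA pairs and -0.28 for all pairs. The called pair was SNORA30 in SRCAP, a chromatin remodelling ATPase gene. Its log2 ratio was -7.57, -8.75 and -7.59 in 500 nM libraries, against -6.45, -5.31 and -6.35 in DMSO libraries, a difference of -1.94 ± 0.41 (adjusted p = 0.0296, limma). SRCAP rose by 0.90 on the log2 scale (SE 0.07), whereas SNORA30, at a mean of 0.492 CPM, had an estimate of -0.96 ± 0.50 (adjusted p = 0.106, edgeR). The ratio call was lost in 9 other settings (adjusted p from 0.0504 to 0.0765), among them leaving out any 1 library other than the third of 500 nM. The ratio of SNORA78 to SNHG9 was 1.58 ± 0.43 higher and missed the threshold (adjusted p = 0.0622, limma). EIF4A1, host of SNORA48 and SNORA67, is listed at 0 in every library, and RPL21, host of SNORA27, had 0 to 3 counts in each. The ratios of these 3 members, which are among the 84, carry no information.

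At 150 nM no member was called in either direction against DMSO (edgeR), while 1.27% of all genes were, 0.954% higher and 0.318% lower. DESeq2 and limma-voom also called 0 members, and an unadjusted p under 0.05 was reached by 1 member that was higher and 1 that was lower. The median log2 fold change was -0.05. In 4 members every 150 nM library lay above every DMSO library and in 2 every one lay below (6.41% and 7.32% of all genes). SNORA63 had the smallest p of the increases, with 86.5, 106.9 and 63.2 CPM in 150 nM cells and 59.5, 57.8 and 56.0 CPM in DMSO cells. The groups did not overlap, but the third 150 nM library lay close to DMSO, and the estimate of 0.57 ± 0.18 did not pass (adjusted p = 0.291, edgeR). Without that library it was 0.74 and called (adjusted p = 7.36e-07, edgeR). No H/ACA pair was called by its ratio to the host, nor was any of the 309 pairs (0%).

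Between the doses, 29 members were lower and 2 higher at 500 nM than at 150 nM, where 46.5% of all genes were called, 22.8% lower and 23.7% higher. The median log2 fold change was -0.38, and no H/ACA pair was among the 16 of 309 (5.18%) called by the ratio to the host. The count of decreases depended on single 150 nM libraries, with 19 without the second and 32 without the third. SNORA62 had 4.49, 5.10 and 4.05 CPM at 150 nM and fell by 1.07 at 500 nM against 150 nM (SE 0.21, adjusted p = 0.00012, edgeR). SNORA38 fell by 1.20 (SE 0.25, adjusted p = 0.000237, edgeR), SNORA18 by 0.68 (SE 0.13, adjusted p = 0.000122, edgeR) and SNORA40 by 0.67 (SE 0.13, adjusted p = 0.000123, edgeR). SNORA25, not called against DMSO, was called lower here (log2 fold change -0.37). That call was ended by 5 of 17 other settings (adjusted p from 0.068 to 0.187, edgeR). The 2 increases were SNORA47, with 1.66, 1.72 and 1.64 CPM at 150 nM (log2 fold change 0.90 ± 0.24, adjusted p = 0.00242, edgeR), and SNORA78, with 1.01, 1.74 and 0.773 CPM at 150 nM (1.33 ± 0.33, adjusted p = 0.00207, edgeR). Both calls held under every setting tried.

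The mRNAs of the proteins that carry H/ACA snoRNAs fell slightly at 500 nM. The proteins themselves were not measured, and all values here are RNA levels. All 4 core protein genes were lower than with DMSO, where 25.6% of all genes were lower and 26.3% higher. GAR1 fell by 0.46 on the log2 scale (SE 0.10), NOP10 by 0.34 (SE 0.06) and NHP2 by 0.32 (SE 0.06). DKC1, the pseudouridine synthase itself, had 259.1, 248.0 and 254.8 CPM at 500 nM and 276.2, 285.1 and 275.0 CPM with DMSO (-0.13 ± 0.05, adjusted p = 0.0198, edgeR), and with total-count scaling its estimate was 0.01 and not called. The DKC1 call was also lost without the second DMSO library (adjusted p = 0.074), without the second 500 nM library (0.0844) or without the third (0.0503, all edgeR). Of 4 assembly factors 3 were lower, SHQ1, which holds dyskerin before assembly (-0.34 ± 0.06), and the ATPases RUVBL1 (-0.62 ± 0.06) and RUVBL2 (-0.43 ± 0.05), and NAF1 was not called. Of 12 genes of snoRNA processing 6 were lower and 2 higher. The exonuclease XRN2 fell by 0.40 (SE 0.05) and the nucleolar phosphoprotein TCOF1 by 0.45 (SE 0.06), while ZCCHC8, of the nuclear exosome targeting complex, rose by 0.77 (SE 0.07) and the trimming enzyme PARN by 0.26 (SE 0.05). Of 12 pseudouridine synthases that work without a guide RNA 6 were lower, among them PUS7 (-0.64 ± 0.06) and RPUSD4 (-0.48 ± 0.08), and none was higher. With total-count scaling the decreases of TGS1, PAPD5 and NOLC1 (processing) and of PUS7L, RPUSD1 and RPUSD2 (synthases) were no longer called. That scaling called EXOSC10 (0.17, adjusted p = 0.00648, edgeR) and TRUB1 (0.27, adjusted p = 0.00281, edgeR) higher. None of the genes in these lists was called at 150 nM with all 9 libraries.

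The telomerase RNA TERC, which ends in an H/ACA domain bound by the same proteins, rose at 500 nM. It had 525.2, 535.7 and 437.2 CPM in 500 nM cells, against 317.8, 337.2 and 283.5 CPM in DMSO cells, without overlap, a log2 fold change of 0.68 ± 0.07 (adjusted p = 2.29e-07, edgeR). The mRNA of TERT, the catalytic subunit of telomerase, rose by 0.40 (SE 0.08). That of WRAP53, a protein which brings TERC to Cajal bodies, was not called (-0.16 ± 0.08, adjusted p = 0.0997, edgeR). Of the 22 SCARNA genes that met the count rule 5 were higher (22.7%) and 1 was lower (4.55%) at 500 nM. Over all genes 26.3% were higher and 25.6% lower. The median log2 fold change of the SCARNA genes was -0.06, with 12 estimates below 0 and 10 above. Their sum was nonetheless higher, at 1740.5, 1544.5 and 1537.4 CPM in 500 nM cells, against 1230.5, 1359.2 and 1116.7 CPM in DMSO cells. Of 137 SNORD genes 60 were lower and 1 was higher, with a median log2 fold change of -0.68. Ribosomal protein genes, which include 13 of the hosts, gave 69 lower and 2 higher of 82 tested. Whether the H/ACA snoRNAs differ from these classes was not tested.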

How the data were processed

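Ribosomal RNA was removed from total RNA of OCI-Ly1 cells with Ribo-zero, per the labels. The authors deposited whole-number read counts for each gene symbol and library, with no scaling. Per the submitters' processing notes, the tools were featureCounts 1.4.6 with Subread, TopHat2 2.0.14 and Bowtie2 2.2.6, and the builds mm10 and hg19, without roles. The sources used here give no annotation, strand setting or treatment of overlapping features, and reads of a host and of the snoRNA inside it may be split or lost.

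All genes of the table were fitted with edgeR 4.0.16 in R 4.3.3 (filterByExpr with a minimum count of 10 and total of 15, TMM, robust quasi-likelihood, all 9 libraries, group only), leaving 15089 genes. P-values were adjusted by Benjamini-Hochberg over all of them and called under 0.05. CPM are TMM-scaled. Standard errors were derived from the unshrunk log2 fold change and the F statistic. Precision is set by the counts behind each member: members near 0.2 CPM rest on about 10 counts per library. Members were matched to GENCODE 29 (GRCh38) by symbol (81) or older symbol (5) for sequence, length and the smallest same-strand host present in the table. No coordinates are given, as the builds differ. The snoRNA-to-host log2 ratio (0.5 counts added) was tested with limma 3.58.1 over 309 nested small RNA pairs. The fits were tested on simulated data.

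Members, lists and tests were chosen with earlier results of these data known. Named members are the 10 most abundant, up to 8 called changes each way without overlap at 500 nM, up to 4 called in each direction of the other comparisons, those called by the ratio, and members of the same hosts. SNORA74A, SNORA61, SNORA44, SNORA16A, SNORA34, SNORA11, SNORA14A, SNORA31 and the further members in ribosomal protein genes were added after their values were seen. Alternatives were limma-voom, DESeq2 1.42.0, its size factors or total counts as scaling in edgeR, no filter, 1 CPM in 3 libraries, a block for the replicate number, fits of only the 6 libraries compared, each library left out, members with 50 counts in 3 libraries, and for the ratio 10 counts in every library or 2 counts added. No pair of replicates agreed within sampling noise. The sequence of 1 member and the host of another are not reported here.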

Additional observations from a re-analysis of the deposited data

How the results depend on the processing

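Of the 34 decreases and 3 increases at 500 nM against DMSO, 19 and 1 were called under every setting, and against 150 nM 15 of 29 and 2 of 2. Scaling by total counts left 22 decreases against DMSO, and with it DKC1 turned to 0.01 against DMSO and 0.00 against 150 nM, not called in either. Deviations of same-numbered libraries correlated between -0.08 and 0.24 over 9 pairs, and not every pair was over 0.1 (2 pairs of DMSO and 150 nM libraries were), so the numbers were not taken to pair them. Between DMSO and 150 nM, same-numbered libraries gave 0.24, 0.03 and 0.19, and libraries of other numbers -0.22 to 0.04. A link between libraries of these groups thus remains possible. With the replicate number as a block, 36 members were lower and 3 higher at 500 nM against DMSO, 33 lower and 4 higher against 150 nM, and 1, SNORA63, higher at 150 nM against DMSO (0.54, adjusted p = 0.023, edgeR). SNORA68 was called at 500 nM against DMSO (-1.03, adjusted p = 0.0442, edgeR), and the ratio call of SNORA30 was lost (0 lower). Ratio calls of H/ACA pairs at 500 nM against DMSO numbered 3 lower and 2 higher with 10 counts in every library, and 1 lower and 1 higher with 2 counts added. Against 150 nM they were 2 lower and 1 higher with 10 counts in every library, and 1 higher with 2 counts added. Leaving out 1 library gave 1 to 4 increases and 26 to 34 decreases at 500 nM against DMSO, 0 to 1 increase at 150 nM against DMSO, and 2 to 3 increases and 19 to 32 decreases at 500 nM against 150 nM. It gave 0 to 1 lower ratio against DMSO and 0 to 1 higher against 150 nM. The causes were not tested. Members under 1 CPM (18 of 86) are limited by depth, and a decrease there may not be detectable.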

Other observations

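The 20 SNORA symbols outside the count rule included 11 at 0 in every library, among them SNORA36A, SNORA56, SNORA7A and SNORA17, and 6 more with at most 9 counts in any library. Symbols at 0 cannot be compared between groups.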
